A study of Mus musculus with 10 samples.

Results

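Synaptic vesicle and SNARE genes were measured in newborn mouse brains with 1 or 2 X chromosomes. The group was defined by gene symbol, not by a measured value, but earlier results of these data were known when it was chosen. It took probe sets with 1 symbol among the synaptotagmins (Syt), synapsins (Syn), synaptophysin (Syp), the SNAP family (Snap), syntaxins (Stx), syntaxin binding proteins (Stxbp), VAMPs, names that begin with Rab3, Sv2, complexins (Cplx), Nsf, Napa, Napb and Rims. It held 67 of the 12488 probe sets, for 52 genes. Of these, 60 probe sets were bright enough to be tested, and the other 7 are given as levels. The symbol pattern also took 7 probe sets of Rab31, Rab33a, Rab33b, Rab34 and Rab35, which are traffic GTPases outside the Rab3 subfamily, and Snap91, which encodes the clathrin adaptor AP180 and is no SNARE.

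Neurons release transmitter by fusing vesicles with the plasma membrane. VAMP on the vesicle zips together with a syntaxin and a SNAP25 protein on the target membrane, synaptotagmins sense the calcium that triggers fusion, and complexins clamp and then assist it. Munc18 proteins (Stxbp) guide assembly, Rab3 GTPases act in vesicle docking, and NSF with its adaptors, the alpha and beta SNAPs (Napa, Napb), takes the spent complexes apart. Relatives of the same proteins drive membrane fusion in the Golgi, endosomes and lysosomes of every cell. Synapse formation in the mouse brain runs mostly after birth, so the newborn brain is an early stage for this machinery.

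RNA of whole brain at postnatal day 0 was hybridised to 10 arrays, 1 colour each. The cross C57BL/6J x C3H/Paf gave 3 arrays of XmO (39 chromosomes, the single X maternal by its name) and 3 of XX_Paf females (40 chromosomes). The cross In(X)/C3H x C57BL/6J gave 2 arrays of XpO (39 chromosomes, the single X paternal by its name) and 2 of XX_InX females (40 chromosomes). Paf is the X-linked patchy fur mutation and In(X) an inverted X, both known for yielding XO offspring; whether the XX females carried either, which parent is named first, and whether an array holds 1 animal or a pool are not stated. No treatment is named. Nothing says that the arrays hold separate animals, so p-values measure the spread between these arrays only. In whole brain RNA, fewer cells of a type and less RNA per cell cannot be told apart.

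All arrays had the same trimmed mean intensity of 500.3. Xist, the RNA that coats an inactive X, lay between 1673 and 4082 on the 5 XX arrays and between 21.3 and 49.9 on the 5 XO arrays, so no array went against its label. All 8 neuronal markers examined lay above the brightest Y-linked level on each array, a guide to background because no group carries a Y. That level ran from 33.6 on XpO 15 to 136.6 on XmO 7, so counts of arrays above it depend on the array as well as the gene. The summed intensity of the neuronal markers ran from 56254 to 61621 in XmO, 59393 to 60175 in XX_Paf, 60685 to 66142 in XpO and 58963 to 64400 in XX_InX. The summed erythroid markers were higher in the Paf cross (11284 to 17288 in XmO, 11689 to 16971 in XX_Paf) than in the In(X) cross (5952 to 7455 in XpO, 4016 to 6178 in XX_InX). The summed markers of dividing progenitors (5 of 6 listed genes measured, 4 above the Y-linked level on all arrays) were lowest in XmO (1354 to 1421), followed by XX_Paf (1436 to 1604), XX_InX (1681 to 1694) and XpO (1766 to 1992), with no overlap between neighbours. Between these neighbours, in that order, 13.9%, 37.1% and 23.4% of all probe sets tested did not overlap. The summed skeletal muscle markers reached 3332 on XX_Paf 2 against 473 to 1082 on the others. The first principal component, which held 25.6% of the variance, had XpO 18 (27.4) and XX_InX 1 (22.4) at one end and XX_Paf 1 (-23.6) and XpO 15 (-15.0) at the other. It separated XX_Paf (-23.6 to -9.77) from XX_InX (9.54 to 22.4). The part of these features in the results below was not tested. Values without XpO 18 and XX_InX 1 are given where the sign turns.

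RefSeq promoters (GRCm38.p6, 250 bases before to 50 after the start) were matched for 44 of the 52 genes, with 61 start sites. Shown 5′ to 3′ are those of Napa, Syt3, Cplx2 and Vamp4, which are among the members of smallest p between the crosses, and of X-linked Syp. Capitals mark exact matches to a cyclic AMP response element (TGACGTCA), an E-box (CACGTG) or a GC box (GGGCGG), searched on both strands. Napa (chr7:16098330-16098629, plus strand), Syt3 (chr7:44383876-44384175, plus), Cplx2 (chr13:54302306-54302605, plus), Vamp4 (the first of 2 start sites, chr1:162570265-162570564, plus) and Syp (chrX:7638330-7638629, plus) read as follows.
Napa: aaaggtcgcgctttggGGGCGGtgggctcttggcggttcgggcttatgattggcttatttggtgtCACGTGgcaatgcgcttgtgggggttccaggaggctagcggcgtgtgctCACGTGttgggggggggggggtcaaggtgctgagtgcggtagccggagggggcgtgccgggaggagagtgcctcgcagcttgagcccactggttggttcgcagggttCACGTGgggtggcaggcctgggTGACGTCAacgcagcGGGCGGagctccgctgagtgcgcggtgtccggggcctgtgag
Syt3: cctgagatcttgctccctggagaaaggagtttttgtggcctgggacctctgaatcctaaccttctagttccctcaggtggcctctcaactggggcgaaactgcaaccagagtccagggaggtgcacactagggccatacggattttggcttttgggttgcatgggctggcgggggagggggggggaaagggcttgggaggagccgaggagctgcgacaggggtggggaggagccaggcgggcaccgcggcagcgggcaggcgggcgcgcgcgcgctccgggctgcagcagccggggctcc
Cplx2: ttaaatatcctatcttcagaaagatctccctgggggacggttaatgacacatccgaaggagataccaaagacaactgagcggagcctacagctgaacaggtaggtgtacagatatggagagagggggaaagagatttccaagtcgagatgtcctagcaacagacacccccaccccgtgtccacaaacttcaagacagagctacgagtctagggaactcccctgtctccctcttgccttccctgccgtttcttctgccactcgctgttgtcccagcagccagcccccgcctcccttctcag
Vamp4: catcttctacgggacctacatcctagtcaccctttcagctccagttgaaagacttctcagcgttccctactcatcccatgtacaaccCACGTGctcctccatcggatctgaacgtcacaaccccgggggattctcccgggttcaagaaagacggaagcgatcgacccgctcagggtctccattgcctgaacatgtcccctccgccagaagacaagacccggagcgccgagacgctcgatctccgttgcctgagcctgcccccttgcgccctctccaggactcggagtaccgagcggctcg
Syp: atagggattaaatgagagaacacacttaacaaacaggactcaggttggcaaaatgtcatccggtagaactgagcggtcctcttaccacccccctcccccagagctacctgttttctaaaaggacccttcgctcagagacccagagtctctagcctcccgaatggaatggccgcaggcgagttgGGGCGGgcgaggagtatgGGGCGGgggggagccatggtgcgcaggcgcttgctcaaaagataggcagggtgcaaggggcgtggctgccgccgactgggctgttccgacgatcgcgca
The Napa window holds 1 cyclic AMP response element, 3 E-boxes and 2 GC boxes, the first Vamp4 window 1 E-box, and the Syp window 2 GC boxes. The second Vamp4 window, not shown, holds 3 GC boxes and no E-box. The Syt3 and Cplx2 windows hold none of these letters. Across the 61 windows of the group a GC box was found in 65.6%, against 35.7% of all 32851 RefSeq promoter windows. An E-box was found in 14.8% against 7.15%, a cyclic AMP response element in 3.28% against 1.79%, and a TATA box (TATAAA) in 4.92% against 13.6%. None of these motifs contains another, and a match describes the letters only. The RefSeq windows were not limited to genes on the array, and a gene with several start sites counts more than once. The shares are therefore not matched and do not show a trait of this group.

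The first comparison set both kinds of XO brain against the XX brains of their own cross. No synaptic vesicle or SNARE gene passed the test: 0 of 60 probe sets were called (limma, adjusted p under 0.05, background 0.0115% of 8695 probe sets tested), and 0 had an unadjusted p under 0.05 (background 2.6%). With 1 array left out that count ran from 0 to 2, except without XpO 15, where it was 6 of 61 (9.84%, background 7.5%). In 0 of 60 were the arrays of both crosses separated the same way (background 0.851%). Of the 60 estimates, 36 were lower in XO (60%, background 49.9%), with a median log2 fold change of -0.03 beside 0.00042 for all probe sets tested. For 56 of the 60, the 95% confidence interval lay within 1 log2 unit (a factor of 2) on either side of no change, and for 34 it lay within 0.5. Smaller differences than these intervals span were not detectable with this number of arrays. Of a list of 29 core exocytosis genes, 18 were tested with 21 probe sets, of which 6 had higher and 15 lower estimates, from -0.44 to 0.21.

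Snap25, which encodes the SNARE that supplies a pair of helices to the fusion complex (chromosome 2), had intensities of 2861, 2596 and 2862 in XmO, 2504, 2462 and 2831 in XX_Paf, 2518 and 2642 in XpO and 2815 and 3015 in XX_InX. The highest array exceeded the lowest by a factor of 1.22, and XO and XX arrays overlapped in the Paf cross but not in the In(X) cross. Its XO effect was near 0 (log2 fold change -0.04, SE 0.08, 95% confidence interval -0.21 to 0.13, limma adjusted p = 0.9995). Stx1a, its syntaxin partner at the nerve terminal (chromosome 5), stood at 1362, 1079 and 1304 in XmO, 1032, 1327 and 1322 in XX_Paf, 1525 and 1594 in XpO and 1518 and 1329.6 in XX_InX. Both XpO arrays were above every other array, and the XmO and XX_Paf arrays overlapped (log2 fold change 0.08, SE 0.11, 95% confidence interval -0.15 to 0.31, limma adjusted p = 0.9995). Across the 9 probe sets of plasma membrane syntaxins and SNAP25 relatives, 1 estimate was higher and 8 were lower in XO, from -0.23 to 0.08. Snap47, a broadly expressed SNAP25 relative, kept to 4093 to 4577 on the 10 arrays. Stx2, Stx3 and Stx4a encode syntaxins of the plasma membrane in many cell types. Stx2 ranged over 381 to 939.7, the brightest Stx3 probe set over 189 to 362 and Stx4a over 275 to 401. The brightest Stx3 probe set had 1 of the 3 smallest p-values among lower estimates (log2 fold change -0.23, SE 0.17, 95% confidence interval -0.59 to 0.13, limma adjusted p = 0.9995). Its estimate ran from -0.40 without XpO 15 to -0.05 without XpO 18, and was 0.04 without XpO 18 and XX_InX 1. Snap23, the SNAP25 relative of non-neuronal cells, was dim, at 70.7 to 160.5, and above the brightest Y-linked level on 6 arrays.

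**Figure D1:**
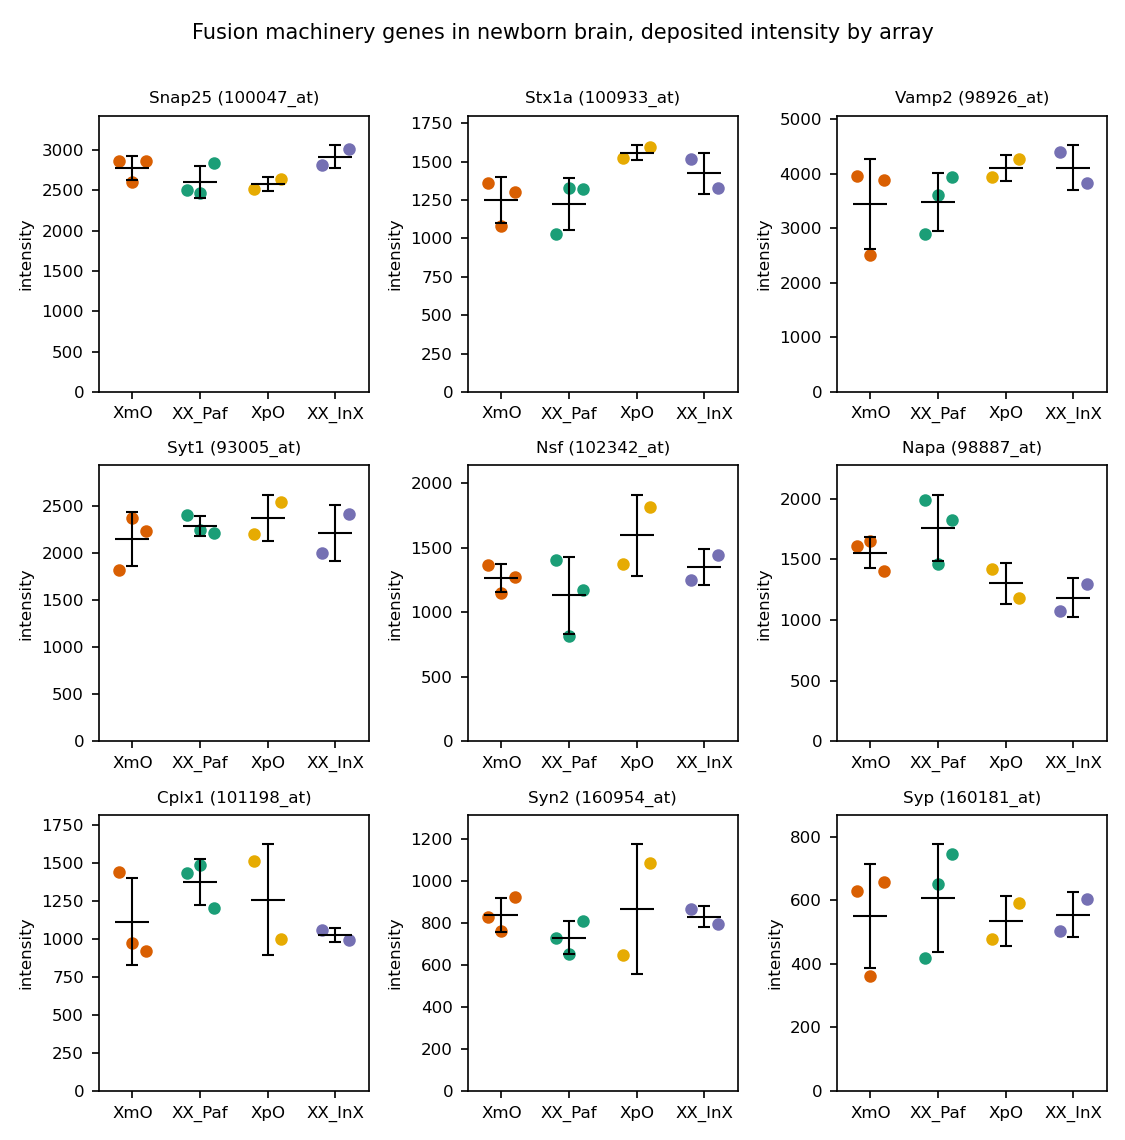
Deposited intensity (vertical axis, linear, from 0) of 9 fusion machinery probe sets on each array (points), by group, with the group mean and SD as bars (n = 3 for XmO and XX_Paf, n = 2 for XpO and XX_InX). Snap25 spans 2462 to 3015 over all 10 arrays, while Syp spans 362 to 747 and Cplx1 923 to 1518.

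Among the vesicle SNAREs, Vamp2 encodes synaptobrevin 2, the main VAMP of forebrain synapses (chromosome 11). Its brighter probe set lay at 3962, 2502 and 3891 in XmO, 2904, 3618 and 3940.2 in XX_Paf, 3944 and 4273 in XpO and 4402 and 3822 in XX_InX. XmO 2 was the lowest array, and XO and XX arrays overlapped in both crosses (log2 fold change -0.02, SE 0.13, 95% confidence interval -0.31 to 0.27, limma adjusted p = 0.9995). The sign turned without XmO 2 (0.09), XpO 15 (0.01), XX_InX 1 (0.03) or XX_Paf 3 (0.03), and without XpO 18 and XX_InX 1 together (0.0056). The dimmer Vamp2 probe set had 466, 268 and 316 in XmO, 216, 635 and 668 in XX_Paf, 527 and 643 in XpO and 469 and 654 in XX_InX. Its lowest array was XX_Paf 1 and its highest XX_Paf 3. Vamp1, the synaptobrevin of brainstem and spinal circuits (chromosome 6), had 145, 172 and 380.2 in XmO, 158, 88.8 and 273 in XX_Paf, 113 and 364 in XpO and 236 and 329.5 in XX_InX. XmO 7 was its highest array and XX_Paf 2 its lowest, and the groups overlapped. The second Vamp1 probe set was too dim to test, at 69.0, 64.2 and 56.4 in XmO, 69.3, 34.4 and 46.4 in XX_Paf, 14.7 and 18.4 in XpO and 85.7 and 58.2 in XX_InX. Vamp3, a VAMP of recycling endosomes, had 1 of the wider intervals, -0.24 to 1.16 around 0.46, and lay above the brightest Y-linked level on 6 arrays. Vamp8, of late endosomes, ranged over 372 to 531, while Vamp5 (17.1 to 46.3) and the second Vamp8 probe set (20.7 to 140.1) were too dim to test. Over the 8 tested VAMP probe sets, 1 estimate was higher and 7 were lower, from -0.17 to 0.46.

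Syt1, the fast sensor for release in forebrain neurons (chromosome 10), was at 1826, 2378 and 2242 in XmO, 2410.4, 2245 and 2214 in XX_Paf, 2200.4 and 2548 in XpO and 2008 and 2422 in XX_InX. XO and XX arrays overlapped in both crosses, and the XO effect was 0.00 with an interval of -0.21 to 0.22 (SE 0.10, limma adjusted p = 0.9995). Its sign turned without XmO 2, XmO 7, XpO 18, XX_InX 1, XX_Paf 2 or XX_Paf 3 (-0.07 to -0.0054). Of the 12 tested synaptotagmin probe sets, 7 estimates were higher and 5 lower, from -0.30 to 0.27. Syt3, a calcium-binding synaptotagmin of neurons, had the smallest p of the whole group (log2 fold change 0.27, SE 0.13, 95% confidence interval -0.02 to 0.56, limma adjusted p = 0.9995), against -0.12 on the other Syt3 probe set. Syt5, a further calcium-binding member, came next among higher estimates (log2 fold change 0.15, SE 0.10, 95% confidence interval -0.06 to 0.36, limma adjusted p = 0.9995). Syt2, the fast sensor of hindbrain synapses, had lower estimates on both probe sets, -0.29 (SE 0.18, limma adjusted p = 0.9995) for the brighter, with 298, 248 and 340.5 in XmO, 382, 275 and 386 in XX_Paf, 216 and 323 in XpO and 277 and 412 in XX_InX. XO and XX arrays of Syt2 overlapped in both crosses. With 1 array left out, the estimate ran from 0.18 (without XpO 18) to 0.36 (without XpO 15) for Syt3, from 0.05 (without XX_InX 19) to 0.25 (without XX_InX 1) for Syt5 and from -0.43 (without XpO 18) to -0.15 (without XpO 15) for Syt2. The dimmer Syt2 probe set had 75.4, 54.4 and 113 in XmO, 98.8, 74.9 and 99.9 in XX_Paf, 85.9 and 169 in XpO and 161 and 151 in XX_InX, and lay above the brightest Y-linked level on 7 arrays. Syt11, which does not bind calcium (chromosome 3), had 1516, 1002 and 1188 in XmO, 1275, 920.0 and 1061 in XX_Paf, 1587 and 1096 in XpO and 1718 and 1198 in XX_InX, with XX_InX 1 the highest and XX_Paf 2 the lowest. Syt17 ranged over 193 to 321. Syt6, Syt7 and Syt9 were dim, with 52.3 to 176, 51.2 to 116 and 43.4 to 116, and lay above the brightest Y-linked level on 8, 5 and 4 arrays. Syt8 and Syt10 were above it on 0 of 10 arrays and were not tested.

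Nsf, the ATPase that takes spent SNARE complexes apart (chromosome 11), had 1367, 1152 and 1276 in XmO, 1408, 816 and 1174 in XX_Paf, 1372 and 1816 in XpO and 1252 and 1446 in XX_InX. XX_Paf 2 was the lowest and XpO 18 the highest, with overlap in both crosses (log2 fold change 0.21, SE 0.15, 95% confidence interval -0.10 to 0.53, limma adjusted p = 0.9995). Cplx1, a complexin of many inhibitory neurons (chromosome 5), stood at 1445, 976 and 923 in XmO, 1434, 1488 and 1205 in XX_Paf, 1518 and 1003 in XpO and 1062 and 997 in XX_InX. XmO 1 and XpO 15 were above the other XO arrays, and XO and XX arrays overlapped in both crosses. In this role 2 of 9 estimates were higher and 7 lower in XO, from -0.08 to 0.21. Of the Munc18 genes, the epithelial Stxbp2 ranged on its brighter probe set over 319 to 514 and the ubiquitous Stxbp3 over 134 to 233.

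Rab3a, the main Rab3 of synaptic vesicles (chromosome 8), had 259.7, 245 and 273 in XmO, 116, 569.6 and 178 in XX_Paf, 480.3 and 181 in XpO and 531 and 405 in XX_InX. XX_Paf held both the lowest and the highest array, and the interval of XO against XX ran from -1.05 to 0.59. The second Rab3a probe set was not tested, at 4.2, 54.3 and 19.1 in XmO, 8.2, 9 and 4.2 in XX_Paf, 34.6 and 15.4 in XpO and 41.6 and 34.6 in XX_InX, above the brightest Y-linked level on 1 array. Rab3b, a Rab3 of endocrine and some neuronal cells (chromosome 4), had the smallest p among lower estimates, with 289, 137 and 180.5 in XmO, 391, 249.5 and 315 in XX_Paf, 453 and 185 in XpO and 284 and 373 in XX_InX (log2 fold change -0.44, SE 0.27, 95% confidence interval -1.01 to 0.14, limma adjusted p = 0.9995). XO and XX arrays overlapped in both crosses. Its estimate was -0.76 without XpO 15 and -0.11 without XpO 18. Rab3d, a Rab3 of secretory granules (chromosome 9), had 420.1, 481 and 459 in XmO, 419, 318 and 477 in XX_Paf, 512 and 371 in XpO and 351 and 441 in XX_InX, with overlap in both crosses. Syn2, a synapsin that tethers vesicles in the reserve pool (chromosome 6), had 825, 761 and 922 in XmO, 727, 652 and 809.8 in XX_Paf, 648 and 1082 in XpO and 865 and 795 in XX_InX. XpO held both its lowest and its highest array. Rab35, an endosomal Rab, had the largest estimate of the 60 (log2 fold change 0.66, SE 0.44, 95% confidence interval -0.28 to 1.61, limma adjusted p = 0.9995), at 51.5 to 209.8, and lay above the brightest Y-linked level on 5 arrays. Its estimate was 0.28 without XpO 15 and 1.04 without XpO 18.

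**Figure D2:**
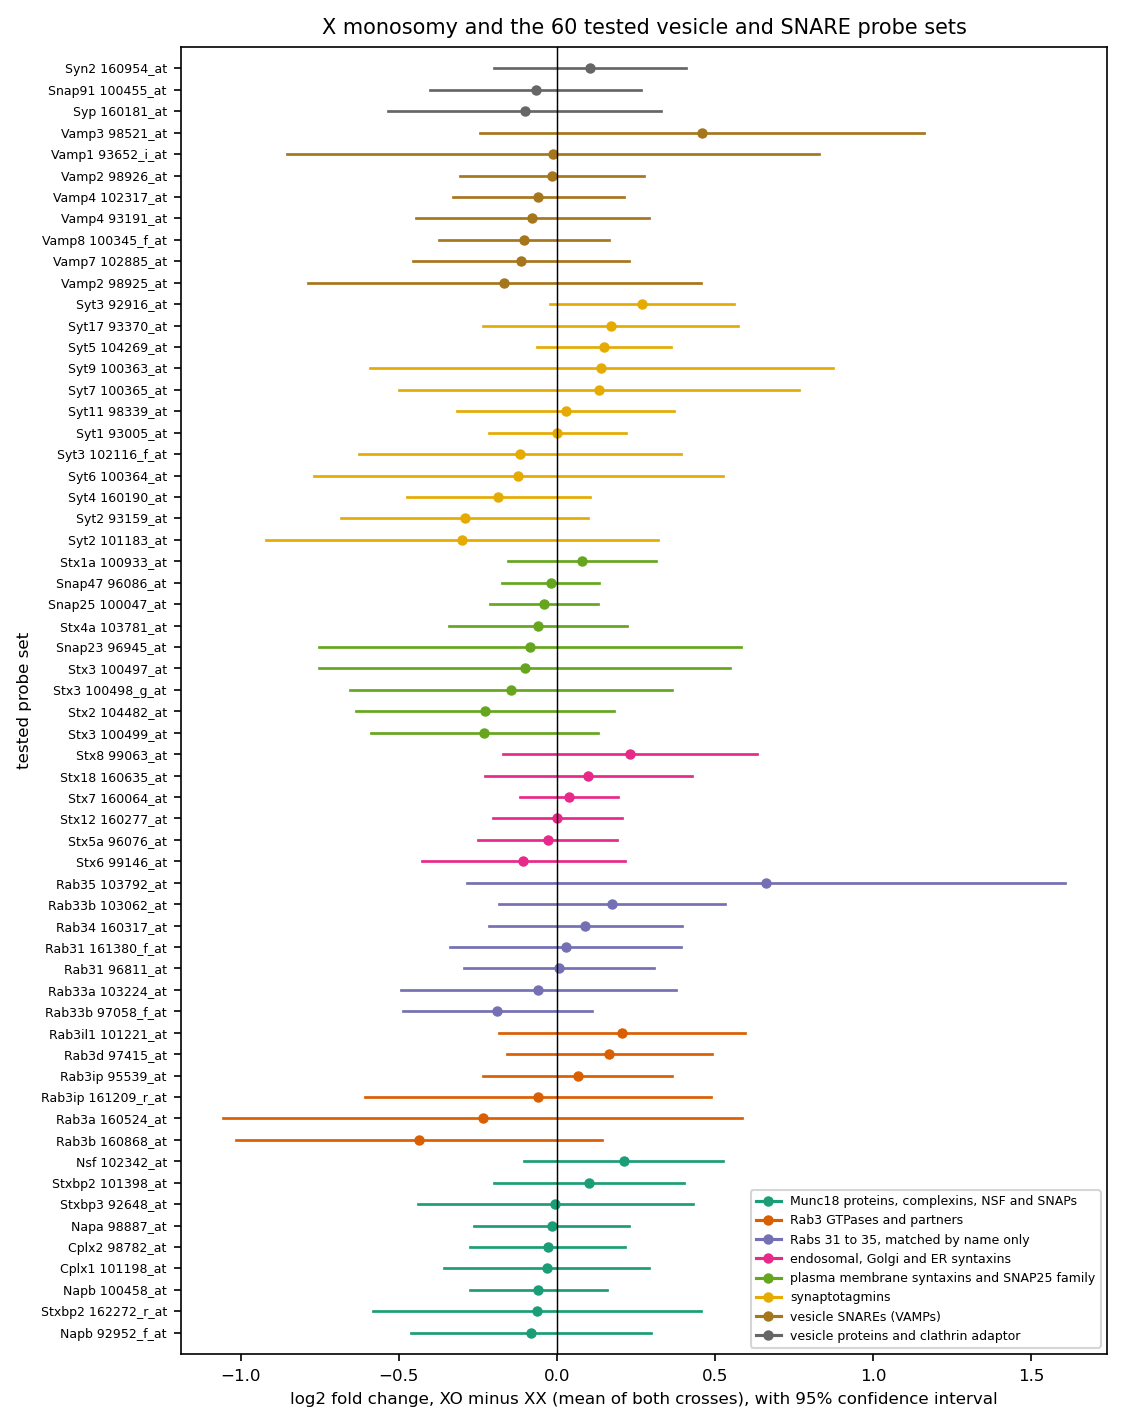
Log2 fold change of XO against XX (horizontal axis, mean of both crosses) for each of the 60 tested probe sets (vertical axis, coloured by role), as a point with its 95% confidence interval from limma. Every interval includes 0; the widest is that of Rab35, from -0.28 to 1.61.

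Members on the X were Syp, Rab33a and Vamp7. Syp, the vesicle protein synaptophysin, had 630.2, 362 and 657 in XmO, 417, 652 and 747 in XX_Paf, 479 and 589.7 in XpO and 504 and 604 in XX_InX. The lowest arrays were XmO 2 and XX_Paf 1, and XO and XX overlapped in both crosses (log2 fold change -0.10, SE 0.20, 95% confidence interval -0.53 to 0.33, limma adjusted p = 0.9995; 0.04 without XmO 2). Rab33a, a Rab of neurons and immune cells, had 781, 674 and 398 in XmO, 808, 672 and 714 in XX_Paf, 882 and 496 in XpO and 657 and 520.3 in XX_InX. XmO 7 and XpO 18 were the low arrays (log2 fold change -0.06, SE 0.20, 95% confidence interval -0.49 to 0.38, limma adjusted p = 0.9995), and the sign turned without XmO 7 (0.09), XpO 18 (0.15) or XX_InX 1 (0.03), and without XpO 18 and XX_InX 1 together (0.23). Vamp7, a SNARE of late endosomes and neurite growth, had 182, 169 and 202 in XmO, 222, 199 and 197 in XX_Paf, 179 and 144 in XpO and 171 and 165 in XX_InX. XmO 7 lay above the lower XX_Paf arrays, so the groups overlapped, as XpO did with XX_InX (log2 fold change -0.11, SE 0.16, 95% confidence interval -0.46 to 0.23, limma adjusted p = 0.9995). The Vamp7 estimate was -0.19 without XpO 15 and -0.04 without XpO 18. None of the 3 tested X-linked probe sets was called. A log2 fold change of -1 lies outside all 3 intervals. With 1 X inactive in XX cells, this is no test of X dosage, which was not tested. The second Vamp7 probe set was dim (20.6 to 119.9) and not tested.

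Within the Paf cross, XmO was set against XX_Paf. Again 0 of 60 were called by limma (background 0.023%), and 2 had an unadjusted p under 0.05 (3.33%, background 5.53%). Without XmO 1 that count was 8 of 59 (13.6%, background 6.88%) and without XX_Paf 2 it was 7 of 60 (11.7%, background 4.45%), above the background. It was 4 without XpO 15 or XpO 18, 1 without XmO 2 and 2 or 3 without any other array. Estimates were lower in XmO for 33 (55%, background 49.5%). The groups did not overlap for 7 of the 60 probe sets (11.7%, background 13.9%). The 2 with the smallest p were synaptotagmins. Syt3 (chromosome 7) had 837, 715 and 864 in XmO and 476, 694 and 509.7 in XX_Paf, with each XmO array above each XX_Paf array (log2 fold change 0.54, SE 0.17, 95% confidence interval 0.17 to 0.91, limma adjusted p = 0.877). Its values in the other cross were 748 and 966 in XpO and 928 and 778 in XX_InX, so the XX_Paf arrays were the low ones. The other Syt3 probe set had an estimate of -0.12 in XmO against XX_Paf, in the opposite direction. Syt4, a synaptotagmin of large vesicles that does not act as a fast calcium sensor (chromosome 18), had 496, 523 and 589.7 in XmO and 776, 682 and 689 in XX_Paf, all XmO arrays below all XX_Paf arrays (log2 fold change -0.42, SE 0.17, 95% confidence interval -0.79 to -0.05, limma adjusted p = 0.877). Here XX_Paf was the high group, with 574 and 366 in XpO and 427 and 459.7 in XX_InX. Vamp4, the VAMP of the trans-Golgi network (chromosome 1), had lower estimates on both probe sets, with 474, 392 and 444 in XmO against 598, 562 and 498 in XX_Paf on the first (log2 fold change -0.34, SE 0.16, 95% confidence interval -0.68 to 0.00, limma adjusted p = 0.877) and -0.40 on the second. Rab3b also had a lower estimate (-0.70, SE 0.34, limma adjusted p = 0.887). The summed markers of dividing progenitors and of oligodendrocytes (549.8 to 595.5 against 601 to 659) were lower in XmO than in XX_Paf without overlap. Of all probe sets tested, 13.9% did not overlap between these groups. By probe set, 1 progenitor estimate was higher and 5 were lower (median -0.27). For oligodendrocytes 1 was higher and 2 were lower (median -0.05). The part of these markers was not tested. Higher estimates were those of 1 probe set of the Golgi GTPase gene Rab33b (0.35, SE 0.21, limma adjusted p = 0.887; other probe set -0.10) and of Vamp3 (0.65, SE 0.41, limma adjusted p = 0.887).

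Within the In(X) cross, XpO was set against XX_InX, with 2 arrays on each side. By limma 0 of 60 were called (background 0.0115%) and 0 had an unadjusted p under 0.05 (background 3.38%), and the groups did not overlap for 5 (8.33%, background 23.4%). The unadjusted count was 6 of 60 without XpO 18 (10%, background 8.67%), 2 without XpO 15, 1 without XX_InX 1 and 0 without any other array. Estimates were lower in XpO for 28 (46.7%, background 52.1%). Snap25 was the member of smallest p, with both XpO arrays below both XX_InX arrays (log2 fold change -0.18, SE 0.12, 95% confidence interval -0.44 to 0.09, limma adjusted p = 0.9998); the mean intensity was 2580.1 ± 88.3 against 2915 ± 142 (SD, n = 2 each). Lower estimates that did not pass were also those of Syt2 (-0.35, SE 0.28) and the brighter Rab33b probe set (-0.27, SE 0.21; 0.0041 without XpO 18). Higher estimates were those of Stx18, a syntaxin of the endoplasmic reticulum (0.32, SE 0.23), Rab3il1, which encodes an exchange factor for Rab GTPases, (0.34, SE 0.28; -0.07 without XpO 18 and XX_InX 1), and Syt5 (0.18, SE 0.15; -0.02 without XX_InX 19). All of these had a limma adjusted p of 0.9998. The summed markers of dividing progenitors were higher in XpO than in XX_InX without overlap (23.4% of all probe sets tested did not overlap). Of the 6 tested probe sets of these genes, 4 had higher and 2 lower estimates, with a median of 0.05. The part of these markers was not tested.

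XmO against XpO asks about the parental origin of the single X, which cannot be told apart here from the cross. By limma 0 of 60 probe sets were called (background 0.0115%), and 0 had an unadjusted p under 0.05 (background 4.83%). That count was 5 of 61 without XpO 15 (8.2%, background 10.7%), 4 of 59 without XmO 1 (6.78%, background 6.1%) and 0 to 2 without any other array. The groups did not overlap for 9 of 60 (15%, background 17.4%), and estimates were lower in XmO for 31 (51.7%, background 49.9%). Stx1a had the smallest p (log2 fold change -0.33, SE 0.15, 95% confidence interval -0.66 to 0.00, limma adjusted p = 0.969), at 1249 ± 149.6 in XmO (SD, n = 3) and 1559 ± 48.5 in XpO (SD, n = 2), with no overlap. The dimmer Vamp2 probe set was at 466, 268 and 316 in XmO and 527 and 643 in XpO (log2 fold change -0.77, SE 0.41, 95% confidence interval -1.65 to 0.11, limma adjusted p = 0.969), and the brighter one had an estimate of -0.28. Syt5 had 1424, 1490.5 and 1446 in XmO and 1579.8 and 1820.5 in XpO (-0.22, SE 0.14, limma adjusted p = 0.969). The synaptotagmins as a role (12 probe sets of 10 genes) had 2 higher and 10 lower estimates in XmO, median -0.19 beside 0.00036 for all probe sets tested. Rabs 31 to 35 (6 higher, 1 lower) and the endosomal, Golgi and endoplasmic reticulum syntaxins (5 higher, 1 lower) leaned the other way. The remaining roles were mixed. Between XmO and XpO the summed markers of dividing progenitors were lower in XmO (1354 to 1421 against 1766 to 1992), with 5 of 6 probe sets lower and a median log2 fold change of -0.46. The radial glia and astrocyte sum was lower in XmO (14936 to 15509 against 15864 to 16839). Of the 7 tested probe sets of these genes, however, 3 had higher and 4 lower estimates, with a median of -0.05. The erythroid sum was higher in XmO. The part of these markers in the member estimates was not tested. Higher estimates were those of Napa (0.26, SE 0.16), 1 probe set of Rab3ip, which encodes an exchange factor for Rab8 (0.28, SE 0.20; other probe set -0.14), and Syt4 (0.22, SE 0.19; -0.10 without XpO 18). Their limma adjusted p-values were 0.969, 0.974 and 0.998.

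The monosomy effect in one cross was then tested against that in the other. By limma 0 of 60 were called (background 0.023%), 1 had an unadjusted p under 0.05 (1.67%, background 5.91%), and 33 had a lower estimate in the Paf cross (55%, background 48.1%). The unadjusted count was 13 of 60 without XpO 18 (21.7%, background 13.5%) and 5 of 59 without XmO 1 (8.47%, background 7.15%), the latter near the background. It was 3 without XX_Paf 2, 2 without XX_InX 1 and 0 or 1 without any other array. No member separated XO from XX completely and in opposite directions in the crosses (background 2.02%). The smallest p was that of Vamp4, with -0.34 for XmO and 0.22 for XpO, each against its own XX (difference -0.56, SE 0.25, limma adjusted p = 0.832), and -0.40 and 0.25 on its other probe set. Cplx1 had a difference of -0.59 (SE 0.30, limma adjusted p = 0.839). The dim Syt6, above the brightest Y-linked level on 8 arrays, had -1.17 (SE 0.60, limma adjusted p = 0.839). In the other direction stood Syt3 (0.54, other probe set -0.01), the Golgi and endosome GTPase gene Rab31 (0.52, other probe set 0.48) and Snap25 (0.27). The limma adjusted p-values of these 3 leading estimates were 0.832, 0.845 and 0.862. The interval of this difference lay within 1 log2 unit for 29 of the 60 members, fewer than the 56 of 60 for XO against XX.

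**Figure D3:**
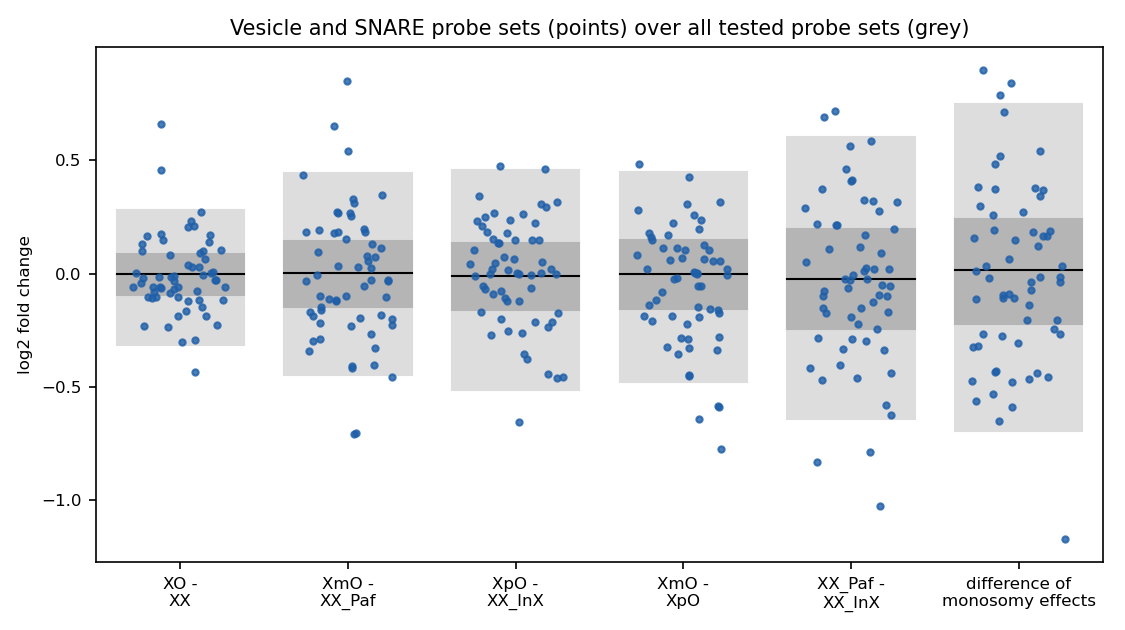
Log2 fold change (vertical axis) of the 60 tested members (points, spread sideways at random) in each of the 6 comparisons, over the 5th to 95th percentile (light grey), the 25th to 75th percentile (dark grey) and the median (line) of all 8695 probe sets tested. The member medians run from -0.04 (XX_Paf against XX_InX) to 0.01 (XpO against XX_InX). Comparisons that share arrays are not independent.

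XX_Paf against XX_InX gives the difference between crosses in XX brains. By limma 0 of 60 were called (background 0.0805%), and 6 had an unadjusted p under 0.05 (10%, background 13.8%). The unadjusted count was 12 of 60 without XpO 18 (20%, background 17%), 11 of 61 without XpO 15 (18%, background 17%), 3 of 61 without XX_InX 1 (4.92%, background 7.43%) and 6 to 8 without any other array. The groups did not overlap for 20 (33.3%, background 37.1%), and estimates were lower in XX_Paf for 34 (56.7%, background 52.7%). Syt4 was at 716 ± 52.6 in XX_Paf (SD, n = 3) and 444 ± 22.9 in XX_InX (SD, n = 2; log2 fold change 0.69, SE 0.19, 95% confidence interval 0.28 to 1.10, limma adjusted p = 0.185). Napa, the alpha SNAP that recruits Nsf (chromosome 7), had 1992, 1460.0 and 1828 in XX_Paf and 1072 and 1299 in XX_InX (log2 fold change 0.56, SE 0.16, 95% confidence interval 0.22 to 0.91, limma adjusted p = 0.186). The XmO arrays, of the same cross as XX_Paf, lay at 1612, 1650.1 and 1408, and the XpO arrays at 1425 and 1182. Napb, the brain-specific beta SNAP (chromosome 2), had 719.5, 697 and 644 in XX_Paf, 545 and 549.9 in XX_InX, 605, 660.5 and 555 in XmO and 582 and 561 in XpO on its brighter probe set (log2 fold change 0.33, SE 0.14, 95% confidence interval 0.02 to 0.63, limma adjusted p = 0.335). Its XX_Paf arrays were all above its XX_InX arrays. The dimmer probe set had 558, 465 and 415 in XX_Paf, 432 and 509.5 in XX_InX, 562, 317 and 410.4 in XmO and 579.8 and 390.5 in XpO, with overlap and an estimate of 0.02. Vamp4 had 880.3, 486 and 529.7 in XX_Paf and 381 and 361 in XX_InX on the probe set with the larger estimate (log2 fold change 0.72, SE 0.24, 95% confidence interval 0.20 to 1.24, limma adjusted p = 0.235); XX_Paf 1 stood well above the other arrays. The estimate was 0.37 on the second.

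Lower estimates in XX_Paf were led by Cplx2, the complexin of excitatory forebrain neurons (chromosome 13), with 940.3, 788 and 749.6 in XX_Paf and 1125 and 1340.5 in XX_InX (log2 fold change -0.58, SE 0.16, 95% confidence interval -0.93 to -0.23, limma adjusted p = 0.185). Its XmO arrays lay at 1006, 785 and 971 and its XpO arrays at 1132 and 991. The XmO values overlapped those of XX_Paf, and the XpO values reached into those of XX_InX. Syt3 was at 559.7 ± 117 in XX_Paf (SD, n = 3) and 853 ± 106 in XX_InX (SD, n = 2; log2 fold change -0.62, SE 0.19, 95% confidence interval -1.03 to -0.21, limma adjusted p = 0.202), and its other probe set had -0.44. Rab31 had lower estimates on both probe sets, with 502, 537 and 592 in XX_Paf and 669.7 and 769.7 in XX_InX on the brighter (log2 fold change -0.40, SE 0.20, 95% confidence interval -0.83 to 0.02, limma adjusted p = 0.382). The XX_Paf arrays also enter the Paf comparison above, so Syt3, Syt4 and Vamp4 stand in both through the same 3 arrays. The summed markers of 3 cell types did not overlap between these groups (37.1% of all probe sets tested did not overlap). Erythroid markers (11689 to 16971 against 4016 to 6178) and oligodendrocyte markers (601 to 659 against 482 to 547, 3 of 6 listed genes measured, Mog at or below the Y-linked level on all arrays) were higher in XX_Paf, and those of dividing progenitors were lower. By probe set, 4 of 4 erythroid and 2 of 3 oligodendrocyte estimates were higher in XX_Paf, and 4 of 6 progenitor estimates were lower. The ranges of the neuronal, radial glia, endothelial, microglial, pituitary and muscle sums overlapped. The part of the markers and of the first principal component in these values was not tested.

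**Figure D4:**
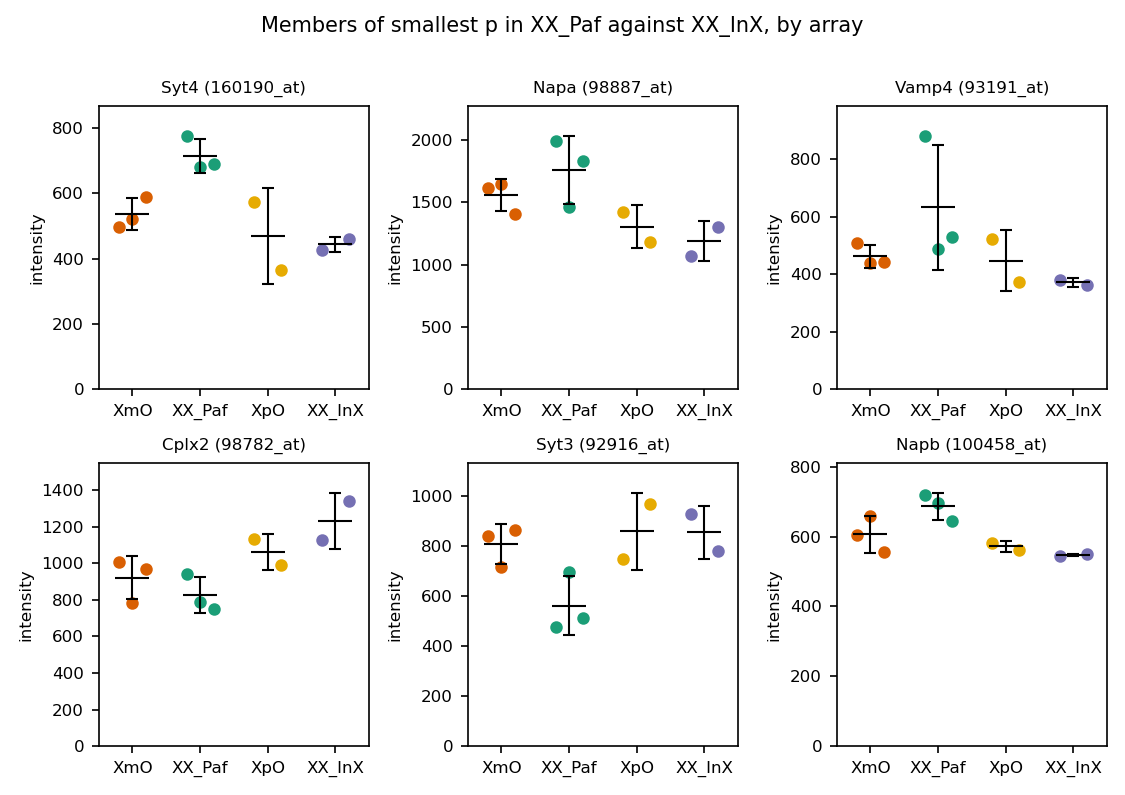
Deposited intensity (vertical axis, linear, from 0) by array and group for the 6 probe sets of smallest p in XX_Paf against XX_InX, with group mean and SD as bars (n = 3 for XmO and XX_Paf, n = 2 for XpO and XX_InX). Syt4, Napa, Vamp4 and Napb are higher and Cplx2 and Syt3 lower on all XX_Paf than on all XX_InX arrays, and none passed the adjusted threshold.

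Members varied among themselves in how tightly they were measured. The SD between arrays of a group ran from 0.06 (Stx7 and Snap47) to 0.86 (Rab35) in log2, with a median of 0.27 beside 0.23 for all probe sets tested. Stx7, Stx8 and Stx12 encode endosomal syntaxins, Stx5a the Golgi syntaxin and Stx6 that of the trans-Golgi network. Stx7 ranged over 3439 to 3826, Stx12 over 2566 to 3407 and Stx5a over 776 to 995, so their highest arrays exceeded the lowest by factors of 1.11, 1.33 and 1.28. In XO against XX these endosomal, Golgi and endoplasmic reticulum syntaxins had 4 higher and 2 lower estimates, from -0.11 to 0.23. Stx6 ranged over 337 to 592, Stx8 over 122.7 to 221 and Stx18 over 205 to 328, and Rab34, a Rab of macropinosomes and cilia, over 689 to 1058. The AP180 gene Snap91 ranged over 956 to 1738.

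Of the 52 genes, 14 had 2 or 3 probe sets, and for 10 of these at least 2 were tested. Their probe sets had the same sign for 6 of 10 genes in both XO against XX and the Paf cross, for 8 in XpO against XX_InX and in XX_Paf against XX_InX, for 7 in the difference between crosses and for 5 in XmO against XpO. Vamp2 and Rab31 had the same sign on both probe sets in all 6 comparisons, and Stxbp2 had opposite signs in 5 of 6.

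Other genes of the vesicle cycle that the symbol pattern does not take, such as active zone proteins, endocytic proteins and transmitter transporters, were listed separately. Of 70 listed genes, 41 were measured and 38 tested, with 48 probe sets. By limma 0 were called in either direction in any of the 6 comparisons, and some had an unadjusted p under 0.05. These were 3 of 48 in XO against XX (6.25%, background 2.6%), 4 in the Paf cross (8.33%, background 5.53%) and 1 in the In(X) cross (2.08%, background 3.38%). They were 4 in XmO against XpO (8.33%, background 4.83%), 1 for the difference between crosses (2.08%, background 5.91%) and 5 in XX_Paf against XX_InX (10.4%, background 13.8%). In XO against XX, 24 estimates were higher and 24 lower, with a median of 0.0038. The smallest p-values there were those of the clathrin adaptor subunit gene Ap2b1 (0.36, SE 0.15) and the active zone liprin gene Ppfia4 (0.44, SE 0.20; limma adjusted p = 0.9995 for both). Ppfia4 had 601, 389 and 368 in XmO, 664, 611 and 522 in XX_Paf, 543 and 414 in XpO and 139 and 258 in XX_InX, where the XX_InX arrays were the low ones. It was the nearest of the list to a call, with an estimate of 1.65 in XX_Paf against XX_InX (SE 0.28, limma adjusted p = 0.0568). In that comparison Pacsin1, an endocytic adaptor gene, came next (-0.36, SE 0.14, limma adjusted p = 0.303). Syngr2, a synaptogyrin gene, had -0.80 in XmO against XX_Paf (SE 0.26, limma adjusted p = 0.877) and -0.70 in XmO against XpO (SE 0.29, limma adjusted p = 0.969). Cadps, a vesicle priming gene, had -0.27 on 1 probe set in XmO against XX_Paf (SE 0.11, limma adjusted p = 0.877). The brighter Cadps probe set had means of 3334 in XmO and 3439 in XX_Paf, with overlap. For the endocytic gene Eps15, 1 probe set had 0.78 in XmO against XpO (SE 0.28, limma adjusted p = 0.859). The brighter Eps15 probe set had means of 1771 in XmO and 1830 in XpO, with overlap.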

How the data were processed

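Each of the 12488 probe sets has 1 deposited intensity per array, on a linear scale. How the authors summarised probes is not given in the sources. The trimmed mean (2% removed at each end) of the deposited intensity is 500.3 on all 10 arrays, so the arrays had been scaled to a common level and were not normalized further.

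Of these, 66 controls were left out. Symbols came from the platform annotation (1 symbol for 10833, several for 396, none for 1193), chromosomes and promoters from RefSeq GRCm38.p6. Intensities under the 10th percentile (15.1) were raised to it, log2 was taken, and the 8695 probe sets whose mean reached the 30th percentile were tested with limma 3.58.1 in R 4.3.3 (4 group means, 6 residual degrees of freedom, moderated variances that follow intensity, two-sided, Benjamini-Hochberg over all 8695 within each comparison, called at an adjusted p under 0.05). No sample was dropped or imputed. Members, lists and tests were chosen with earlier results of these data known. Named were a core list of exocytosis genes, X-linked members and, in each comparison, up to 3 members of smallest p in each direction. Estimates for Snap25, Stx1a, Vamp2, Syt1 and Nsf in XO against XX were chosen after values were seen. The background is the brightest of 9 Y-linked probe sets on each array, and no detection calls were used. The fit was also run on simulated data with independent errors, which lack any spread shared between arrays, and no result here rests on that run. Alternatives varied floor, filter, normalization, variance trend, arrays and replicate block.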

Additional observations from a re-analysis of the deposited data

How the results depend on the processing

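None of the synaptic vesicle and SNARE probe sets tested was called by limma in any of the 6 comparisons under any of 18 alternatives; the nearest was Syt4 in XX_Paf against XX_InX, at adjusted p = 0.0931 without XpO 18. XmO and XX_Paf share the replicate numbers 1 and 2, and what the numbers stand for is not stated. Deviations of same-numbered arrays from their group means correlated at -0.01 and -0.04 across probe sets. With so few arrays, these correlations cannot settle whether same-numbered arrays are paired. The replicate block left this count at 0 in each comparison and changed no call among members. The number of arrays and the missing detection calls limit every value. Of 1002 values of named log2 fold changes under alternatives, 974 kept their sign and side of the threshold, 24 changed sign and 4, all of Ppfia4, passed the threshold. With 1 array left out, estimates that changed sign ran from -0.27 to 0.15 for Rab33a, -0.22 to 0.037 for Syp, -0.066 to 0.069 for Syt1 and -0.080 to 0.092 for the brighter Vamp2 probe set in XO against XX, from -0.55 to 0.0041 for Rab33b and -0.016 to 0.39 for Syt5 in XpO against XX_InX, and from -0.10 to 0.55 for Syt4 in XmO against XpO. Without XpO 18 and XX_InX 1 together, chosen after seeing the data, changed signs were 0.23 (Rab33a), 0.044 (Stx3), -0.12 (Syt1), 0.0056 (Vamp2), -0.072 (Rab3il1) and -0.10 (Syt4); with quantile normalization Syt1 had -0.0032. Of 44 named member estimates, 31 moved by over 1.5 times or changed sign when 1 array was left out. The cause was not tested. All probe sets called numbered 1, 2, 1, 1, 2 and 7 in XO against XX, the Paf cross (XmO against XX_Paf), the In(X) cross (XpO against XX_InX), the single X groups (XmO against XpO), the difference between crosses and XX_Paf against XX_InX. In that order they were 4, 4, 6, 3, 4 and 17 with no filter, 1 to 3, 2 to 4, 1 to 4, 1 to 7, 0 to 4 and 2 to 17 with 1 array left out, and 3, 2, 3, 0, 1 and 21 without XpO 18 and XX_InX 1. The difference between crosses had 1 call with the filter at the 50th percentile and 0 with no intensity trend, where XX_Paf against XX_InX had 2.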
